A study of Mus musculus with 4 samples.

Results

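The secondary and tertiary neutrophil granule proteins followed here are the products of 9 genes, *Ltf*, *Camp*, *Ngp*, *Lcn2*, *Olfm4*, *Mmp8*, *Mmp9*, *Retnlg* and *Cd177*, out of 24346 genes with a value in every library. They were chosen by gene symbol, as genes of the specific (secondary) and gelatinase (tertiary) granules. No value in these libraries entered that rule, but earlier results of these data were known when it was made. All 9 symbols were found and all 9 passed the filter on low values. Their mRNA was measured by RNA-seq in *in vitro* MDSCs (myeloid-derived suppressor cells), immature myeloid cells made by culturing bone marrow (BM) cells of female C57BL/6J mice aged 6 to 8 weeks for 4 days with 40 ng/ml GM-CSF. In 2 libraries the culture held GM-CSF alone (Control), and in 2 libraries 5 ng/ml G-CSF was added to it for the same 4 days (G-CSF). The comparison asks what G-CSF, given on top of GM-CSF, does to the expression profile of these cells. The study's methods name no sorting step for these RNA samples, so each library stands for a whole culture, and the number of mice behind each library is not given in the sources used here.

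Neutrophil granules are filled in sequence as the precursor matures in the marrow. Myeloperoxidase and the serine proteases of the primary granules are made first, at the promyelocyte stage, the proteins of the specific granules follow in myelocytes and metamyelocytes, and gelatinase and other tertiary granule proteins come last, in band cells. The transcription factor C/EBP-epsilon is known to be needed for specific granule genes, and G-CSF is the main cytokine of neutrophil production, acting through the receptor encoded by *Csf3r*.

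Because C/EBP factors are known regulators of these genes, the upstream sequences of 5 members are shown with matches to a C/EBP motif in capitals. The motif searched was TTNCNNAA, on both strands. The first 3 belong to genes on chromosome 9 that differ widely in level and in response, *Olfm4* is the member with the largest fall, and *Mmp8* is the one that did not pass the test. The sequences are RefSeq's for GRCm38.p6, written 5′ to 3′ on the gene's own strand, and stop where an annotated exon begins or at the RefSeq start. The window of *Olfm4* lies inside the span of that gene in the GENCODE M21 annotation, 79984081 to 80023139.
Ltf, chr9:111019042-111019270, plus strand: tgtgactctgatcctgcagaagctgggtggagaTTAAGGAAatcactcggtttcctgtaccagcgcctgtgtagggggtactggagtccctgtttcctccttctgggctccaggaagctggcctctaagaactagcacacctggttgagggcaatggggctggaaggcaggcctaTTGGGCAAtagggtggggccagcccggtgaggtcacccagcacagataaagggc
Camp, chr9:109849618-109849706, minus strand: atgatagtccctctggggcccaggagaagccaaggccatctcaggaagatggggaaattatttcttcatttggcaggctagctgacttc
Ngp, chr9:110419558-110419746, plus strand: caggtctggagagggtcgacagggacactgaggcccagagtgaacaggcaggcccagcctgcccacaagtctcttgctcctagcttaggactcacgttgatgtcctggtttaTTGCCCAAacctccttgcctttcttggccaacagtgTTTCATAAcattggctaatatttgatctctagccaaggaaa
Olfm4, chr14:80000052-80000250, plus strand: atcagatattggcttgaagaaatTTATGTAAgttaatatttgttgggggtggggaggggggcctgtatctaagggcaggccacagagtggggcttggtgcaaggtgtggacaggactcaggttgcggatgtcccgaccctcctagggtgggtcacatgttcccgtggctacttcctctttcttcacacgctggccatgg
Mmp8, chr9:7558179-7558428, plus strand: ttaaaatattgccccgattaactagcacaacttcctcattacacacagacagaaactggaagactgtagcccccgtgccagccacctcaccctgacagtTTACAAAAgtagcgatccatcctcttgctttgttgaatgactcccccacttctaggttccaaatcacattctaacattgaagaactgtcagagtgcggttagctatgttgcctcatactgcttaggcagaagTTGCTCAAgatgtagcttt

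Promoter sequences were found for 8 of the 9 members, and *Mmp9* had none in the table. In the 250 bases before the RefSeq start, 7 of the 8 members held at least 1 match to the C/EBP motif, and 36.8% of 32851 mouse promoters of that length hold one. *Ngp* had 3 matches, *Ltf* and *Mmp8* 2 each, and *Lcn2*, *Olfm4*, *Retnlg* and *Cd177* 1 each. The match of *Ngp* nearest to the start lies in exon sequence that is not shown. *Camp* was the member without these letters in its window. Of the 250 bases, 161 lie in annotated exons for *Camp* and 197 for *Lcn2*, so less upstream sequence was searched there. A PU.1 motif, GAGGAA on either strand, was found in 5 of 8 members and in 23.3% of all promoters. The STAT motif TTCNNNGAA and the RUNX motif TGTGGT, both strands, were found in 0 of 8 members and in 7.02% and 14.05% of all promoters. A TATAAA box on the sense strand stood in the window of *Cd177* alone among the 8, and in 7.59% of all promoters. A match of this kind describes the letters and does not show that a factor binds there.

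The level of most of these genes was lower with G-CSF. Of the 9 members, 5 were called lower, *Olfm4*, *Camp*, *Retnlg*, *Ltf* and *Mmp9*, and 0 were called higher. Called means a fold change over 2 with an adjusted p under 0.05 (limma on log2 of FPKM + 0.1, two-sided, Benjamini-Hochberg adjustment over 11867 genes). Over all genes tested, 0.893% were called lower and 0.506% higher. At an adjusted p under 0.05 without a fold minimum, 8 of 9 members were lower, against 11.6% of all genes, and in 8 of 9 both G-CSF values lay below both Control values, against 32.6% of all genes. *Mmp8* was the exception in both counts. The median log2 fold change of the members was -1.08 and that of all genes tested 0.0018. With limma's mean-variance trend left out, 2 members were still called, *Camp* and *Olfm4*, and the same 2 were the members with an adjusted p under 0.05. Without the trend, the adjusted p was 0.0506 for *Ltf*, 0.0520 for *Lcn2*, 0.0523 for *Retnlg*, 0.0555 for *Mmp9*, 0.0663 for *Ngp* and 0.0718 for *Cd177*. In these whole cultures, fewer cells of a type and less mRNA per cell cannot be told apart.

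FPKM (fragments per kilobase of transcript and per M mapped reads) is a level per length, so the members' levels may be set beside each other. The 9 genes together held 13240.0 and 12363 FPKM in Control and 7556 and 8120.0 FPKM with G-CSF. These sums made up 1.98% and 1.93% of the total in the Control libraries against 1.18% and 1.26% in the G-CSF libraries. *Ngp* and *Lcn2* made up the larger share of that sum, and without them the other 7 members held 0.659% and 0.711% of all FPKM in the Control libraries against 0.313% and 0.372% in the G-CSF libraries. The order in both groups began with *Ngp*, *Lcn2* and *Ltf* and ended with *Olfm4*. In Control, *Camp* and *Mmp8* overlapped in level, and *Cd177*, *Retnlg* and *Mmp9* followed without overlap. With G-CSF, *Mmp8* overlapped with *Ltf*, *Camp* with *Cd177*, and *Retnlg* with *Mmp9*, so that the levels of the neighbours in each of these pairs were not separated over the 2 libraries. Within each G-CSF library, *Ltf* was nonetheless above *Mmp8*, and *Mmp9* above *Retnlg*.

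**Figure D1:**
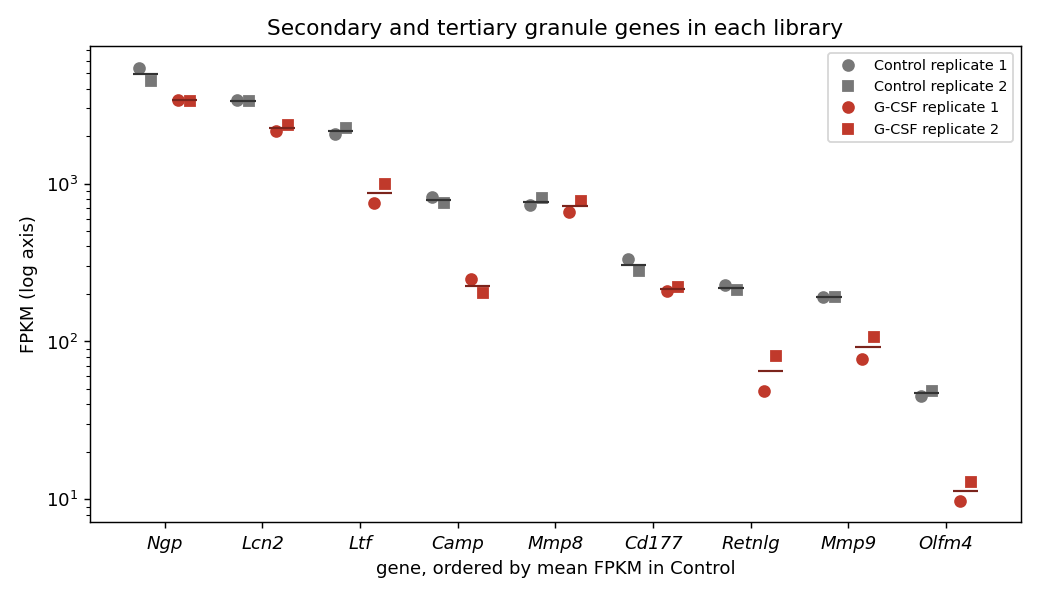
FPKM of the 9 granule genes (log axis) in each library, ordered by mean level in Control, with Control in grey, G-CSF in red, replicate 1 as circles, replicate 2 as squares and a line at each group's mean (n = 2). Both G-CSF libraries lie below both Control libraries for every gene but *Mmp8*, and *Olfm4* is the lowest of the 9 in all 4 libraries.

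*Ltf* encodes lactoferrin, the iron-binding protein that is a classical content of specific granules. It stood at 2073 and 2266 FPKM in Control and at 758 and 996 FPKM with G-CSF. Both G-CSF libraries were far below the Control libraries, and the G-CSF libraries differed from each other more than the Control libraries did. The mean fell by 59.6%, from 2170 ± 137 to 877 ± 168 FPKM (SD, n = 2 each), and the log2 fold change was -1.32 (standard error 0.125, 95% interval -1.62 to -1.02, limma adjusted p = 0.00297). *Ltf* was the 25th and 19th highest of all genes in the Control libraries and the 127th and 104th in the G-CSF libraries.

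*Lcn2* encodes lipocalin 2, which withholds iron from bacteria by binding their siderophores. It stood at 3389.9 and 3314 FPKM in Control and at 2148 and 2359 FPKM with G-CSF, with no overlap. The log2 fold change was -0.57 (standard error 0.0687, limma adjusted p = 0.00489), a fall of 32.8% in the mean that did not reach a fold change of 2. The 95% interval of *Lcn2*, -0.74 to -0.41, does not reach that of *Ltf*, the other protein of iron defence among the members.

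*Camp* and *Ngp* encode related proteins of the cathelicidin family, the antimicrobial peptide precursor CRAMP and neutrophilic granule protein. *Camp* stood at 818 and 757 FPKM in Control and at 248 and 201 FPKM with G-CSF, so that the groups were well apart and replicates close. The mean fell by 71.4%, a log2 fold change of -1.81 (standard error 0.0980, 95% interval -2.05 to -1.58, limma adjusted p = 0.00043), and 9 of the genes tested had a lower estimate. *Ngp* was the most abundant member, at 5434 and 4486.5 FPKM in Control and 3398 and 3361 FPKM with G-CSF. It ranked between 7th and 13th of all genes in the 4 libraries. Its groups did not overlap either, but the fall was smaller, and its log2 fold change was -0.55 (standard error 0.0989, 95% interval -0.78 to -0.31, limma adjusted p = 0.0127). Without a filter on low values, the adjusted p of *Ngp* was 0.0580.

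*Olfm4* encodes olfactomedin 4, a glycoprotein of specific granules that in mice and humans is present in a subset of neutrophils. It was the lowest of the members, at 45.4 and 48.7 FPKM in Control and 9.81 and 12.8 FPKM with G-CSF, or between 246 and 1385 estimated reads. The G-CSF values lay far below the Control values. The mean fell by 76.0%, the largest fall of the 9, and its log2 fold change was -2.06 (standard error 0.120, 95% interval -2.35 to -1.77, limma adjusted p = 0.00061). Of the 75-base windows of its transcripts, 2.71% also occur in another annotated gene, *Gm6999*.

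*Mmp8* and *Mmp9* encode neutrophil collagenase, which is stored in specific granules, and gelatinase B, after which the tertiary granules are named. *Mmp8* stood at 728 and 811 FPKM in Control and at 659 and 781 FPKM with G-CSF. Here the groups overlapped, and G-CSF replicate 2 lay between the Control libraries. Its log2 fold change was -0.098 (standard error 0.0915, limma adjusted p = 0.468), and the 95% interval of -0.32 to 0.12 leaves out a change as large as that of any member called.

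*Mmp9* stood at 192.3 and 191.7 FPKM in Control and at 77.2 and 107 FPKM with G-CSF. The Control libraries were close to each other, the G-CSF libraries were not, and both were below Control. The log2 fold change was -1.08 (standard error 0.134, 95% interval -1.40 to -0.76, limma adjusted p = 0.00507), with a fall of 52.1% in the mean. Without G-CSF replicate 1 the log2 fold change was -0.85, so that the fold change over 2 rests on that library. The other matrix metalloproteinases place these values in their family, of which 23 genes have a value and 9 were tested. *Mmp9* and *Mmp25* were the 2 called lower, and the 14 genes that were not tested did not exceed 0.535 FPKM. *Mmp12*, the macrophage metalloelastase, was the only other member of the family above 50 FPKM, at 508 and 535 FPKM in Control and 467 and 389 FPKM with G-CSF (log2 fold change -0.29, limma adjusted p = 0.0533).

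*Retnlg* encodes resistin-like gamma, a small secreted protein found in mouse neutrophils. It stood at 228 and 211 FPKM in Control and at 48.8 and 80.3 FPKM with G-CSF. Both G-CSF values were low, and they were also the most unequal pair among the members, with a difference of 0.72 between them on the log2 scale. The log2 fold change was -1.81 (standard error 0.205, 95% interval -2.30 to -1.32, limma adjusted p = 0.00432). The lowest library, G-CSF replicate 1, held 233 estimated reads of *Retnlg*. Of the 4 resistin-like genes, only *Retnlg* was tested, and the other 3 did not exceed 1.23 FPKM in any library.

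*Cd177* encodes a GPI-anchored surface protein that is stored in specific granule membranes and that presents proteinase 3 on human neutrophils. It stood at 331 and 278 FPKM in Control and at 209.98 and 222 FPKM with G-CSF, with no overlap. The log2 fold change was -0.49 (standard error 0.0834, 95% interval -0.69 to -0.29, limma adjusted p = 0.0107), below a fold change of 2. Of the 75-base windows of its transcripts, 3.58% occur in other annotated genes, mainly *BC049730*. No shared window was found for *Ltf*, *Camp*, *Ngp*, *Lcn2*, *Mmp8*, *Mmp9* and *Retnlg*.

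**Figure D2:**
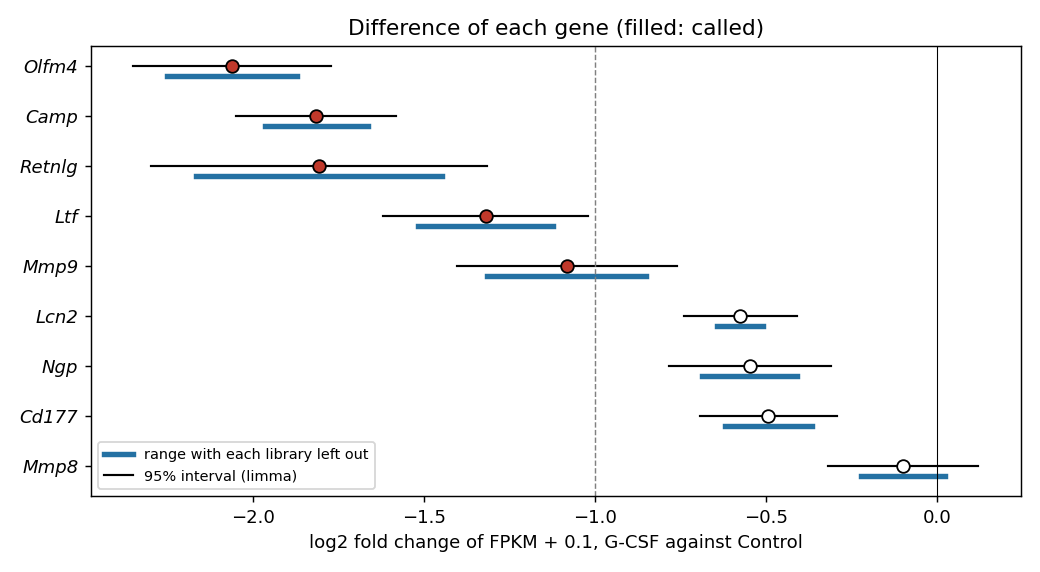
Log2 fold change of each granule gene, G-CSF against Control, with its 95% interval from limma (thin black line) and the range of the estimates with each of the 4 libraries left out in turn (thick blue line). Filled points are the 5 members called, from *Olfm4* at -2.06 to *Mmp9* at -1.08, the dashed line marks a fold change of 2, and the interval and range of *Mmp8* reach across 0.

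The spread among replicates had a pattern across the members. In 7 of 9, the value was lower in G-CSF replicate 1 than in replicate 2, and the exceptions were *Camp* and *Ngp*. Leaving out G-CSF replicate 1 therefore gave a smaller fall for *Ltf* (-1.12), *Olfm4* (-1.87), *Mmp9* (-0.85) and *Retnlg* (-1.45), and a larger one for *Camp* (-1.96). The median over the 9 was -0.85 without that library and -1.31 without G-CSF replicate 2.

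The members did not fall in a fixed ratio to each other. *Mmp8*, used as a reference within each library after its values were seen, separated the groups for all of the other 8 members. The log2 ratio of *Camp* to *Mmp8* was 0.17 and -0.10 in the Control libraries against -1.41 and -1.96 in the G-CSF libraries. In place of *Mmp8*, the genes *Csf3r* (the G-CSF receptor), *S100a8* (a cytosolic calcium-binding protein of neutrophils) and *Itgam* (CD11b) were taken as references, also after their values were seen. Relative to *Csf3r*, the difference between groups was -1.67 for *Olfm4*, -1.42 for *Camp*, -1.41 for *Retnlg*, -0.92 for *Ltf* and -0.68 for *Mmp9* on the log2 scale, without overlap. Against the same reference *Ngp* (-0.15) and *Cd177* (-0.096) overlapped between groups, *Lcn2* (-0.18) did not, and *Mmp8* was higher with G-CSF by 0.30 without overlap. Relative to *S100a8* or *Itgam*, the differences of the 5 members called lower were between -1.72 and -0.72, again without overlap. These ratios are descriptions and were not tested.

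Markers of the cell types that such a culture can hold were lower or higher in the same libraries. In the marker counts here, lower and higher mean an adjusted p under 0.05. Of all 11867 genes tested, 11.6% were lower and 1517 were higher at that threshold, while 0.893% were called lower and 0.506% higher. Of the neutrophil markers that are not members, 6 were analysed, 4 were lower and 0 were called. Their summed level was 67828 and 58176 FPKM in Control and 46519 and 46299.8 FPKM with G-CSF. Of 5 markers of immature neutrophils, 3 were higher, *Mpo*, *Elane* and *Tuba1b*, and 1 of these, *Mpo*, was called. The other 2 had negative estimates, *Fcnb* (-0.49, limma adjusted p = 0.0781) and *Chil3* (-0.27, limma adjusted p = 0.203). Of the 5, 4 are also primary or specific granule genes of the lists described next. The summed levels of the 5 overlapped between groups (4381 and 5260.3 FPKM against 4313 and 4983 FPKM). The summed level of 6 dendritic cell markers was 2649.9 and 2267 FPKM in Control and 1502 and 1210.5 FPKM with G-CSF. Most of that sum was *Cd74*, at 2016 and 1740 FPKM in Control and 1153 and 940 FPKM with G-CSF. All 6 had a negative estimate, 3 of 6 were lower, and 1, *H2-Ab1*, was called lower (-1.09, limma adjusted p = 0.00432). The summed level of 6 macrophage markers was 795 and 813 against 624 and 686 FPKM, with 5 of 6 lower and all 6 estimates negative. All 4 mast cell and basophil markers and 2 of 3 eosinophil markers tested were lower too, while 1 of 5 monocyte markers was lower and 1 was higher. T cell, B cell and erythroid markers summed to under 3 FPKM each in every library. The labels name liver as the source of the RNA where the study's methods name the cultured cells, and all 5 hepatocyte markers, *Alb*, *Apoa1*, *Ttr*, *Fgb* and *Serpina1c*, are listed at 0 in all 4 libraries. The part of these shifts in the fall of the granule genes was not tested.

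Other contents of the specific and gelatinase granules gave a mixed picture. Of 24 such genes tested, 3 were called lower and 0 higher, 15 were lower and 1 was higher at an adjusted p under 0.05, and the median log2 fold change was -0.34. Against all genes tested, these counts compare with 0.893% called lower and 11.6% lower at an adjusted p under 0.05. The genes called were *Mmp25*, a membrane-anchored metalloproteinase of gelatinase granules (-1.34, limma adjusted p = 0.00032), *Ceacam10*, a carcinoembryonic antigen-related molecule (-1.27, adjusted p = 0.00192), and *Chil1*, the chitinase-like protein that is stored in specific granules (-1.07, adjusted p = 0.000339). *Mmp25* stood at 21.9 and 21.5 FPKM in Control and at 8.35 and 8.63 FPKM with G-CSF. *Ceacam10* stood at 204 and 186 FPKM in Control and at 72.6 and 90.2 FPKM with G-CSF, and *Chil1* at 207 and 191 FPKM against 92.5 and 97.02 FPKM. None of these groups overlapped.

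The log2 fold changes of the other 21 genes ran from -0.89 to 0.63. Those with the highest levels were *Lyz2*, a lysozyme (-0.40, limma adjusted p = 0.0209), *Chil3*, a chitinase-like protein (-0.27, adjusted p = 0.203), and *Wfdc21* (-0.080, adjusted p = 0.400). The ends of that range were chosen after their values were seen. They were *Pglyrp1*, a peptidoglycan recognition protein of granules, with 874 and 809 FPKM against 428 and 478 FPKM (-0.89, adjusted p = 0.00169), and *Hp*, which encodes haptoglobin, with 329.9 and 305 FPKM against 480.2 and 505 FPKM (0.63, adjusted p = 0.00241). Reads of *Lyz2* and *Chil3* may be shared with close relatives, since 5.96% and 12.95% of their windows occur in other genes, mainly *Lyz1* and *Chil4*.

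Primary granule genes went the other way. Of 9 tested, 4 were called higher and 0 lower, 7 were higher at an adjusted p under 0.05, and the median log2 fold change was 0.99, where 0.506% of all genes were called higher. *Mpo*, myeloperoxidase, stood at 148 and 133 FPKM in Control and at 399 and 404 FPKM with G-CSF (1.52, limma adjusted p = 0.000119). *Prtn3*, proteinase 3, rose by 1.42, *Ctsg*, cathepsin G, by 1.25 and *Ms4a3*, a marker of granulocyte and monocyte progenitors, by 1.22. *Elane*, neutrophil elastase, named after its values were seen, stood at 279.8 and 232 FPKM in Control and at 549.9 and 467 FPKM with G-CSF (0.99, adjusted p = 0.00392), just below a fold change of 2. By the mean over all 4 libraries, the genes with the highest levels beyond those called were *Cd63*, a granule membrane tetraspanin that was lower (-0.21, adjusted p = 0.0171), *Srgn*, the proteoglycan that packs granule proteases (0.30, adjusted p = 0.0168), and *Ctsc*, which activates those proteases (0.014, adjusted p = 0.832).

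**Figure D3:**
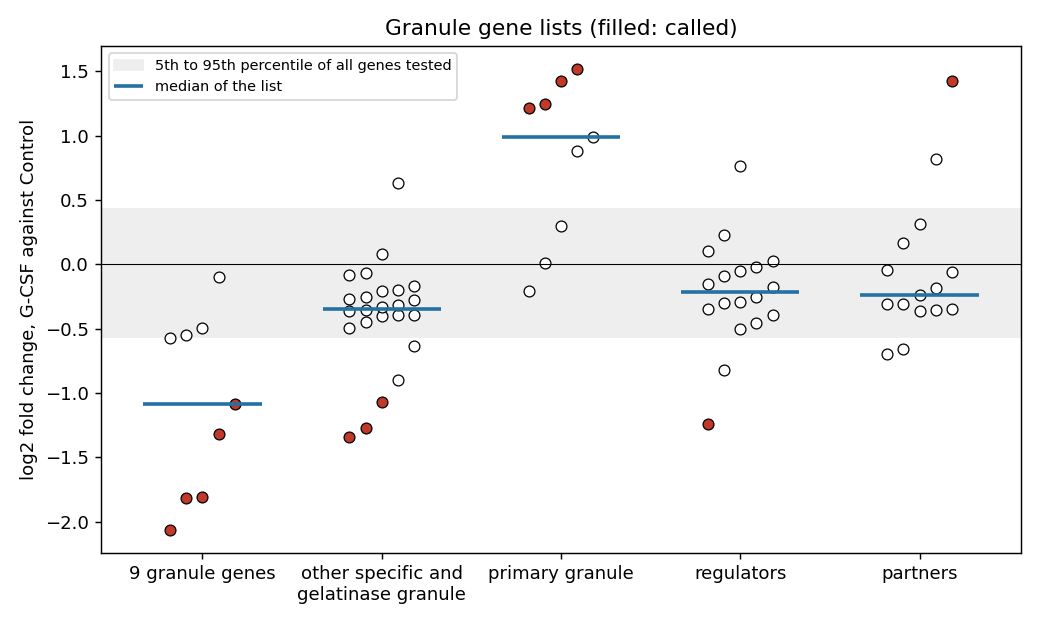
Log2 fold changes, G-CSF against Control, of the tested genes in 5 groups: the 9 granule genes, 24 other specific and gelatinase granule genes, 9 primary granule genes, 18 regulators and 15 partners (filled points called, blue lines medians, grey band the 5th to 95th percentile of all genes tested, -0.57 to 0.43). The median is -1.08 for the 9 granule genes, -0.34 for the other specific and gelatinase granule genes and 0.99 for the primary granule genes.

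Regulators of granule genes were mostly not called, as were most of all genes tested. Of 18 tested, 1 was called lower and 0 higher, where 0.893% and 0.506% of all genes were. At an adjusted p under 0.05, 6 of the 18 were lower, a larger share than the 11.6% of all genes. At that threshold 1 of the 18 rose, where 1517 of 11867 genes did. The median of the 18 was -0.21. *Cebpe*, which encodes C/EBP-epsilon and is named here for its known role, stood at 66.3 and 53.2 FPKM in Control and at 60.6 and 56.6 FPKM with G-CSF. Both G-CSF values lay between the Control values (log2 fold change -0.021, 95% interval -0.26 to 0.22, limma adjusted p = 0.903). The gene called was *Satb1*, a chromatin organiser, at 3.99 and 3.24 FPKM in Control and 1.495 and 1.43 FPKM with G-CSF (-1.24, adjusted p = 0.00506). The 1 that rose was *Gfi1*, a repressor required for neutrophil maturation (0.76, adjusted p = 0.0069). The highest levels belonged to *Csf2rb*, the shared beta chain of the GM-CSF receptor (-0.15, adjusted p = 0.0643), *Spi1*, which encodes PU.1 (-0.18, adjusted p = 0.0809), and *Cebpb* (-0.30, adjusted p = 0.0240). *Csf3r*, taken above as a reference, fell by 0.40 on the log2 scale (adjusted p = 0.0156).

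Of 15 partners, receptors and inhibitors of the granule proteins that were tested, 1 was called higher and 0 lower. At an adjusted p under 0.05, 5 were lower and 2 higher. Over all genes tested, 0.506% were called higher and 0.893% lower. At an adjusted p under 0.05, 11.6% of all genes were lower. Another 1517 of 11867 were higher, a share near that of the partners that rose. The 2 that rose were *Prtn3* and *Pecam1*, an adhesion molecule that binds CD177 on endothelial cells (0.31, limma adjusted p = 0.0139). The gene called was *Prtn3*, whose product binds CD177 at the cell surface, at 273 and 224 FPKM in Control and 691 and 637 FPKM with G-CSF (1.42, limma adjusted p = 0.00112), while *Cd177* itself fell by 0.49. The highest levels were those of *Itgb2* (-0.36, adjusted p = 0.00495) and *Itgam* (-0.35, adjusted p = 0.0055), the chains of the integrin Mac-1, which is stored in granule membranes and with which CD177 associates, and of *Cstb*, an inhibitor of cysteine proteases (-0.19, adjusted p = 0.065). Named after their values were seen, *Timp2*, a tissue inhibitor of metalloproteinases, fell by 0.70 (adjusted p = 0.00299) and *Fpr2*, a receptor for the cathelicidin peptide, by 0.66 (adjusted p = 0.00837). *Timp1*, the inhibitor that pairs with gelatinase B, was low in every library, at 1.10 and 1.87 FPKM in Control and 3.41 and 1.98 FPKM with G-CSF (0.82, adjusted p = 0.109).

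*Camp*, *Ngp* and *Ltf* lie on the same stretch of mouse chromosome 9 (mm10, GENCODE M21 positions), *Camp* at 109847379 to 109849617 on the minus strand, *Ngp* at 110419747 to 110423012 and *Ltf* at 111019271 to 111042767, both on the plus strand. Between *Camp* and *Ngp* lie 570129 bases with 8 coding genes, of which 7 were tested, 0 were called, and the log2 fold changes ran from -0.16 to 0.44. Between *Ngp* and *Ltf* lie 596258 bases with 20 coding genes, of which 8 were tested, 0 were called, and the values ran from -0.35 to 0.57. *Mmp8* is on chromosome 9 as well, at 7558456 to 7568485. Of all genes tested, 0.893% were called lower and 0.506% higher. A lack of calls among the few tested genes between *Camp*, *Ngp* and *Ltf* is near that share.

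The other members are spread over the genome. *Lcn2* (32384633 to 32388252, minus strand) and *Mmp9* (164940780 to 164955850, plus strand) are on chromosome 2, *Olfm4* on chromosome 14 (79984081 to 80023139), *Retnlg* on chromosome 16 (48872621 to 48874496) and *Cd177* on chromosome 7 (24743983 to 24760311, minus strand). Within 100 kb of the 9 members lie 40 other coding genes, of which 26 were tested. Their median log2 fold change was -0.0046, and 1 was called lower and 0 higher, against 0.893% and 0.506% of all genes tested. The gene called was *Ceacam10*, which lies 16895 bases from *Cd177* and had the lowest value of the neighbours (-1.27), and the next lowest was -0.92.

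**Figure D4:**
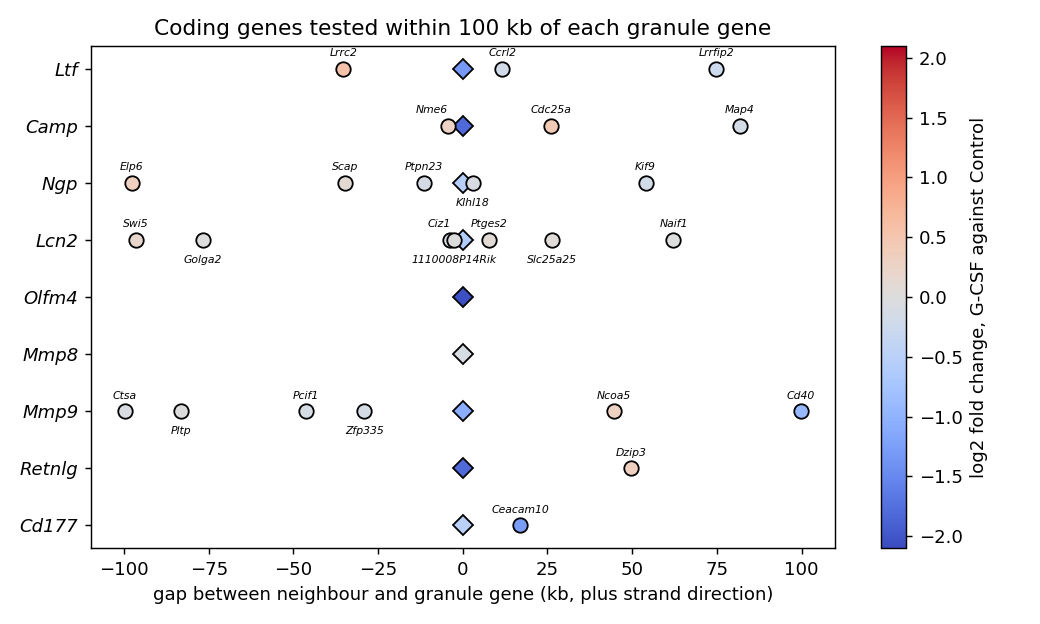
Coding genes tested within 100 kb of each granule gene, placed by the gap in kb between neighbour and granule gene in plus strand direction (diamonds are the granule genes, circles the 26 neighbours) and coloured by log2 fold change, G-CSF against Control. Most neighbours are pale, near 0, the granule genes called are blue, and the other granule genes are paler, with *Mmp8* near 0. *Olfm4* and *Mmp8* have no tested neighbour, and *Ceacam10* next to *Cd177* is the 1 neighbour called.

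For each member called, genes outside the members were ranked by the root mean square difference of centred log2 values over the 4 libraries. The candidates were 6549 genes with a mean of at least 10 FPKM. The members themselves were not candidates, so a member may lie nearer to another member than to the genes named here. With 4 libraries, most of the likeness to a member is the difference between the groups. Nearest to *Ltf* were *Ceacam10* (0.098), *St3gal5* (0.13) and *Mmp25* (0.13), and nearest to *Mmp9* were *Slc40a1* (0.095), which encodes the iron exporter ferroportin, *Ceacam10* (0.12) and *Clec4b2* (0.14). *Camp* was nearest to *Ear6*, an eosinophil-associated ribonuclease (0.14), followed by *Crispld2* (0.26) and *Mmp25* (0.27). *Olfm4* and *Retnlg* shared their nearest pair, *Crispld2* (0.20 and 0.15) and *Ear6* (0.22 and 0.27), followed by *Mmp25* for *Olfm4* (0.38) and *Ceacam10* for *Retnlg* (0.30). *Crispld2* stood at 41.7 and 43.4 FPKM in Control and 11.7 and 15.3 FPKM with G-CSF, and *Ear6* at 177 and 141 FPKM against 42.5 and 42.4 FPKM.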

How the data were processed

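Poly(A) RNA of 4 libraries (2 Control, 2 G-CSF) was sequenced over 75 bases from a single end with a stranded kit. The authors deposited a table of 24346 genes for each library, and the deposited values were taken as FPKM, since they are not whole, the file headers name no unit and the submitters' processing notes name Cufflinks 2.2.1. These notes also name TopHat2 2.0.13, Bowtie2 2.2.3, SAMtools 0.1.19 and mm10, without their order, and the annotation is not given in the sources used here. FPKM values are already divided by depth and transcript length by the authors. Depth was estimated from the steps of low values at 13.4 and 14.2 M reads in Control and 12.5 and 15.7 M with G-CSF (of 1913 low values, 66.8% came within 0.05 reads of whole reads, where 10% would by chance), with GENCODE M21 lengths shortened by 210 bases. Between replicates, Pearson's r across 10557 genes was 0.9954 (Control) and 0.9953 (G-CSF), and for libraries of different groups 0.9858 to 0.9885.

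The test took in 11867 genes, those reaching 10 estimated reads in 2 libraries and 15 over the 4 libraries. The 387 genes without a transcript length were left out. G-CSF was compared with Control by limma 3.58.1 in R 4.3.3 (lmFit, eBayes with trend, two-sided) on log2(FPKM + 0.1), with Benjamini-Hochberg adjustment over all genes tested. The pseudocount draws fold changes of low genes toward 0. Thresholds were an adjusted p under 0.05 and a fold change over 2. Tables and figures were made with python 3.11.15, numpy 2.4.6, pandas 2.3.3 and matplotlib 3.10.9.

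The members and gene lists were chosen with earlier results of these data known. Named were all 9 members, and in each list the genes called and the 3 highest of the rest. Also named were, for each member called, the 3 genes outside the members nearest in pattern, and genes said to be named otherwise. The study calls the 2 libraries of a group biological replicates, without saying whether they came from separate mice or cultures, so p-values measure the spread between these libraries. An exact permutation test of 2 against 2 cannot give a p below 0.333. Alternatives were other pseudocounts, filters and scalings, no trend, no fold minimum, a block for the replicate number, and fits without 1 of the 4 libraries.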

Additional observations from a re-analysis of the deposited data

How the results depend on the processing

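The log2 fold changes of the 9 members kept their direction under every alternative, with 1 exception: *Mmp8* ranged from -0.22 to 0.024 with each library left out, and the higher value was that without G-CSF replicate 1. The number of members called stayed at 5 with pseudocounts of 1 and 0.01 FPKM, without a filter, with at least 1 FPKM in every library, and with upper-quartile or median-ratio scaling. It was 2 without limma's trend, 8 with no fold change minimum, and between 4 and 5 with each library left out, since *Mmp9* was not called without G-CSF replicate 1. Leaving out a library leaves 1 in its group, which is then assumed to vary like the other group. Of all genes, 166 were called, 57 with a pseudocount of 1 FPKM, 76 with at least 1 FPKM in every library, 86 without the trend, 2897 with no fold change minimum, and between 149 and 183 with each library left out. The cause of these changes was not tested. Libraries of the same replicate number share only that number in the labels, and their deviations from the group means had r = 0.28 across genes. With the replicate number as a block, 182 genes and the 5 members were called, and the block ended no member's call. The depth of 12.5 to 15.7 M reads does not limit the members, which held at least 233 estimated reads each, but 2 libraries per group limit all intervals given.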
